A study of Mus musculus with 8 samples.

Results

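Scx, Mkx, Tnmd, Sox9, Acan, Comp, Runx2 and Sp7, genes that mark and direct the formation of tendon, cartilage and bone, were examined in cultured muscle stem cells with and without forced expression of Hoxa9. They were taken by name from the array's annotation: 10 of its 55681 non-control probes carry one of these 8 names, among 34947 distinct gene names in all. The cells were satellite cells, which repair and maintain muscle fibres, sorted from the hindlimbs of C57BL/6J mice of 3 to 4 months and cultured overnight. The control cells carried an integrated eGFP cDNA and the others a Hoxa9 cDNA together with eGFP, both delivered by lentivirus, and eGFP-positive cells were sorted 5 days after transduction. Both groups had therefore been cultured, infected and sorted alike, and there was no uninfected group among the samples analysed. Each group held 4 one-colour arrays, numbered 1 to 4 in both, and the labels do not say that they came from separate animals, so a p-value measures the spread between these samples, which may be technical. With 4 arrays a group, precision is limited by their number. The comparison asks which transcripts differ when Hoxa9 is overexpressed. All levels are log2 signals relative to the 75th percentile of the same array, and all differences are Hoxa9 minus eGFP.

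Scx (scleraxis) is a basic helix-loop-helix transcription factor of tendon progenitors, Mkx (mohawk) a homeobox factor of developing tendon and Tnmd (tenomodulin) a membrane protein of mature tendon that lies downstream of Scx. Sox9 is the transcription factor that founds the cartilage lineage, and it switches on matrix genes such as Acan, the proteoglycan aggrecan. Comp is a matrix glycoprotein of cartilage and tendon. Runx2 and Sp7 (osterix) are transcription factors required in turn for osteoblasts, the bone-forming cells, and Runx2 is made from a distal and a proximal promoter whose transcripts differ at their 5′ ends. In muscle, tendon and skeletal programmes are normally run by connective tissue cells rather than by the myogenic lineage.

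Runx2 was the only member with more than 1 probe. Its probes had unlike differences, though none had an adjusted p under 0.05 over all probes (limma). The sequences of its 2 coding probes are therefore shown here, as deposited in the scanner files. The 5′ probe lies at chr17:44951128-44951187 and the coding 3′ probe at chr17:44744925-44744984 (mm9, minus strand), and the capitals mark the ATG of the 5′ probe.
Runx2 5′ probe: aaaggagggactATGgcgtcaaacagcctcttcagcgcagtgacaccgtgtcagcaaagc
Runx2 coding 3′ probe: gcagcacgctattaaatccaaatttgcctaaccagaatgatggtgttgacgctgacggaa
From its ATG the 5′ probe reads on for 48 bases with 0 stop codons, and 12 bases precede the ATG. The coding 3′ probe is open in 1 of its reading frames. The files place both on the same reference transcript, starting at bases 192 and 1660 of it. They list 4 transcripts for each, of which 2 are shared, but 4 is the most that the files list for any probe, so the lists may be incomplete. A further Runx2 probe, at chromosome 17, 44633034 to 44633093, is annotated to a noncoding variant. It lies 318094 bases from the 5′ probe along the gene, and the coding 3′ probe lies 206203 bases from the 5′ probe.

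The array files and the labels were checked first. On each array 69.6% to 77.5% of non-control spots passed the scanner software's call that a spot exceeds background, termed well above background here, and 0 were saturated. The brighter of the 2 Hoxa9 probes read -0.98 to -0.04 in the eGFP arrays and 5.31 to 5.81 in the Hoxa9 arrays, while the other read -1.95 to -1.50 and -3.52 to -3.34. The labelled cell type was checked against markers. Of 10 satellite cell and myoblast markers 9 were tested, among them Pax7, which marks satellite cells (2.55 ± 0.27 in eGFP), and Myod1, a muscle determination factor; the receptor gene Calcr was above background on 0 arrays. Of markers of endothelial cells (Tie1), white blood cells (Ptprc) and Schwann cells (S100b), those named were above background on 0, 2 and 1 of the 8 arrays.

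**Figure D1:**
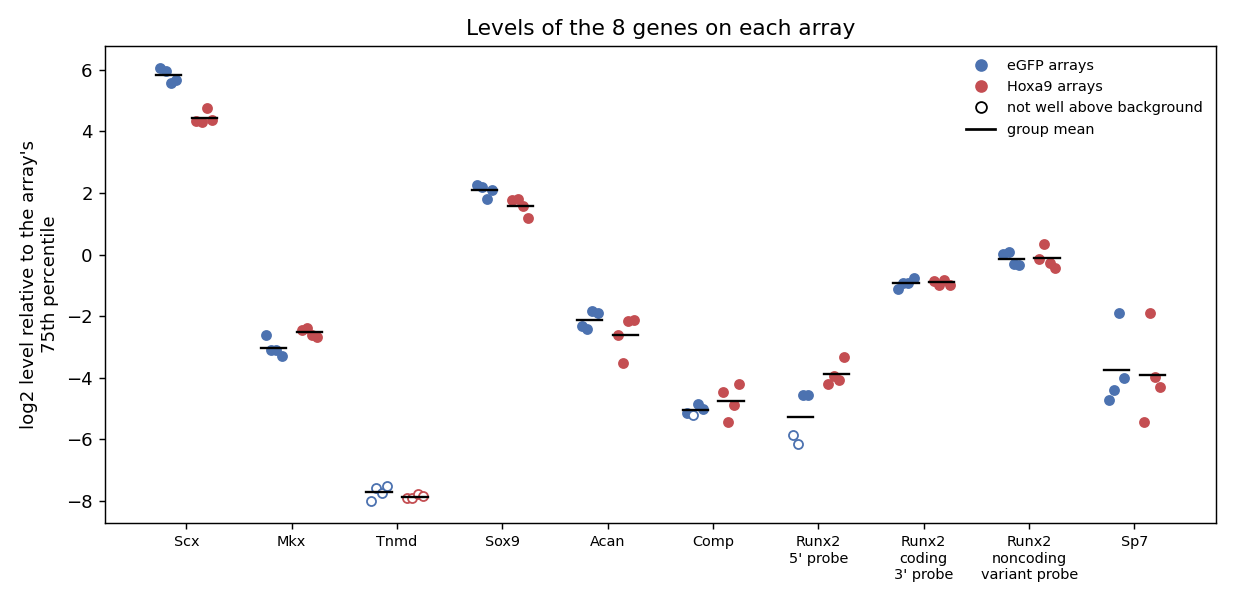
Level of each member probe on each array, as log2 signal relative to the array's 75th percentile (y axis), for 4 eGFP (blue) and 4 Hoxa9 arrays (red), with replicates 1 to 4 from left to right, group means as bars and open circles for arrays not well above background. The Scx points do not overlap between groups (Hoxa9 4.29 to 4.75, eGFP 5.56 to 6.07), and every Tnmd point is open; heights of different probes are not comparable with each other.

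Scx fell in the Hoxa9 arrays and was the one member called. Of the 7 members that could be tested (Tnmd did not pass the filter on dim probes), 1 was lower and 0 were higher at an adjusted p under 0.05. Over all 27109 genes tested 15.2% were called, 7.42% lower and 7.83% higher, so that 1 of 7 is near the background rate. The median difference was -0.15 over the 7 members and -0.07 over all genes.

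Scx gave a strong signal in every array of both groups. Its probe, at chromosome 15, 76289708 to 76289767 (mm9), read 6.07, 5.97, 5.56 and 5.67 in eGFP replicates 1 to 4. It read 4.34, 4.29, 4.75 and 4.36 in Hoxa9 replicates 1 to 4. All 4 Hoxa9 arrays lay below all 4 eGFP arrays, with 0.81 between the nearest 2, and all 8 were well above background. The group means were 5.82 ± 0.24 (SD, n = 4) and 4.44 ± 0.21, a 2.61-fold lower level (log2 difference -1.38, SE 0.18, 95% interval -1.79 to -0.98, limma, adjusted p = 0.00141). The fall was seen in 4 of 4 same-numbered pairs, at -1.73, -1.68, -0.81 and -1.31, and within each of the 3 slides, at -1.66, -1.25 and -0.92. Scx transcripts therefore remained well above background where Hoxa9 was overexpressed.

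In these bulk samples fewer cells that contain Scx transcript and less transcript per cell cannot be told apart. Markers of the labelled cell type moved with Scx. Against 7.42% of all genes, 6 of 9 tested satellite cell and myoblast markers were lower and 0 higher, with a median difference of -0.67. Their summed level, in units of the array's 75th percentile, was 415 to 537 in eGFP and 291 to 303 in Hoxa9 arrays. Such a sum is led by its brightest probes. Pax7 differed by -1.30 (SE 0.21, adjusted p = 0.0040), the adhesion molecule Vcam1 by -2.59 and the laminin receptor subunit Itga7 by -0.76, while Myod1 differed by -0.22 (SE 0.19, adjusted p = 0.484). Of 8 smooth muscle and pericyte markers, all tested, 1 was higher and 1 lower (summed level 97.5 to 155 in eGFP, 42.4 to 96.0 in Hoxa9). Endothelial markers had 1 of 5 tested lower (13.7 to 19.4 and 15 to 20.6), immune markers 1 of 6 (38.1 to 61.2 and 35.5 to 48.8) and Schwann cell markers 1 of 6 (2.29 to 2.62 and 1.48 to 1.63). Of all genes tested 15.2% were called in either direction, and the part of these markers in the Scx result was not tested. The 3 named genes whose levels ran closest to those of Scx over the 8 arrays were Pole, a DNA polymerase subunit (Pearson r = 0.997), Pdss1, an enzyme of coenzyme Q synthesis (0.997), and Pwwp3b (0.994). These values describe 8 arrays that share a group difference.

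Mkx had a difference of the opposite sign to Scx that did not pass the threshold. Its probe, which lies at chromosome 18, 6935183 to 6935242, read -2.61, -3.11, -3.10 and -3.29 in eGFP replicates 1 to 4. In Hoxa9 replicates 1 to 4 it read -2.44, -2.40, -2.60 and -2.68. The groups overlapped through eGFP replicate 1, which lay above Hoxa9 replicate 4, although the Hoxa9 array was the higher of 4 of 4 same-numbered pairs. The closest patterns over the 8 arrays were those of Ahnak, Zfp874b and Zfp3 (r = 0.979 each). The log2 difference of 0.49 (SE 0.18, 95% interval 0.09 to 0.90) had an adjusted p of 0.106 (limma). Without eGFP replicate 1 it was 0.63, with an adjusted p of 0.0337, and over the alternatives the adjusted p ran from 0.0337 to 0.309.

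Tnmd was not detected on these arrays. Its probe, at chromosome X, 130397487 to 130397546, is printed as 10 spots on each array, and only 1 of the 80 spots was well above background. The averaged levels were -8.01, -7.59, -7.74 and -7.51 with eGFP alone, and -7.90, -7.92, -7.79 and -7.85 with Hoxa9, which overlapped. Neither group has more than an upper bound and no fold is given. Scx, whose product acts upstream of Tnmd in tendon, was thus well above background on 8 of 8 arrays while Tnmd was well above background on 0.

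Sox9 was lower in the Hoxa9 arrays by an amount that did not pass the threshold. Its probe (chromosome 11, 112648809 to 112648868) read 2.26, 2.18, 1.82 and 2.10 across the eGFP arrays in replicate order, against 1.76, 1.82, 1.57 and 1.19 across the Hoxa9 arrays. The groups were separated by only 0.0018 between Hoxa9 replicate 2 and eGFP replicate 3. The means were 2.09 ± 0.19 and 1.58 ± 0.28, a log2 difference of -0.51 (SE 0.18, 95% interval -0.93 to -0.08, adjusted p = 0.112, limma), with 4 of 4 pairs lower. The 10 spots of this probe on an array varied with an SD of 0.11 to 0.19. Within slides the difference was -1.03, -0.03 and -0.52. The genes whose levels ran closest to Sox9 over the 8 arrays were Mtfr1 (r = 0.996), the actin cross-linker Flna (0.991) and the BRCA1 partner Bard1 (0.986).

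Neither cartilage matrix member passed the threshold. Acan, at chromosome 7, 86259741 to 86259801, read -2.33, -2.41, -1.83 and -1.89 across the eGFP arrays in replicate order, against -2.61, -3.54, -2.15 and -2.12 across the Hoxa9 arrays. Hoxa9 replicate 2 was the lowest array, and the groups overlapped, but the Hoxa9 array was the lower of 4 of 4 pairs (-0.28, -1.13, -0.32 and -0.24). The log2 difference was -0.49 (SE 0.33, 95% interval -1.24 to 0.26, adjusted p = 0.377, limma), and -0.18 without that array. In the fit blocked by replicate number its SE was 0.20 and its adjusted p 0.17. Its closest patterns were those of Myo7b (r = 0.993), Fam163b (0.991) and Cpz (0.989).

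Comp was dim, with 7 of 8 arrays well above background. Its 60-base probe spans 134 bases of chromosome 8, 72905692 to 72905825. It read -5.15, -5.21, -4.87 and -5.01 across the eGFP arrays in replicate order, against -4.47, -5.44, -4.89 and -4.21 across the Hoxa9 arrays. The Hoxa9 arrays lay on both sides of the eGFP arrays. The difference was 0.31 (SE 0.26, 95% interval -0.29 to 0.91, adjusted p = 0.482, limma).

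**Figure D2:**
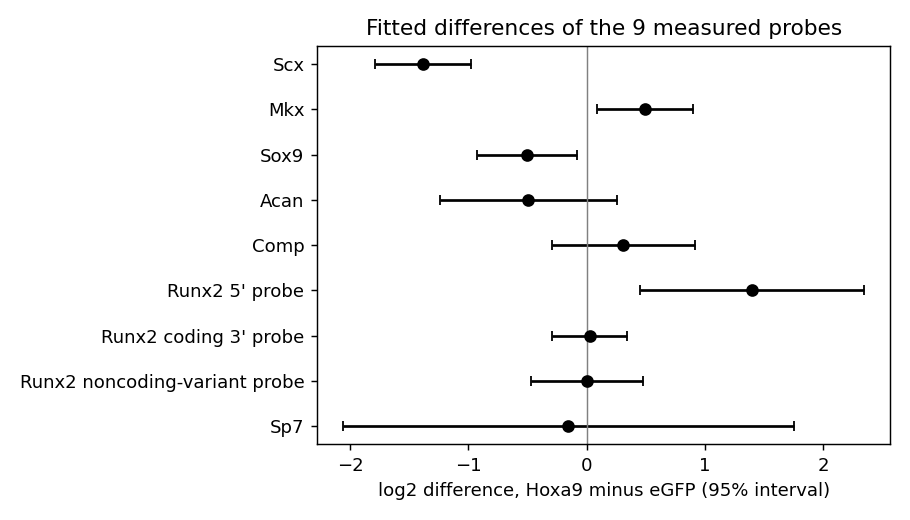
Fitted log2 difference, Hoxa9 minus eGFP (x axis), of each of the 9 member probes that passed the filter on dim probes, with 95% intervals from limma not adjusted for the number of genes; the Runx2 probes come from the fit with 1 row per probe. The intervals of Scx (-1.79 to -0.98) and Sox9 (-0.93 to -0.08) lie wholly below 0. Those of Mkx (0.09 to 0.90) and the Runx2 5′ probe (0.45 to 2.35) lie wholly above it. Of these only Scx was called after adjustment. The eGFP mean of the Runx2 5′ probe includes arrays not well above background. The interval of Sp7 (-2.06 to 1.75) is the widest.

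Runx2 showed no called difference at 2 of its probes, while at the 5′ probe every Hoxa9 array was higher and the call depended on the processing. At the noncoding-variant probe, the brightest and so the one that stands for the gene in the fit over genes, the levels were 0.01, 0.09, -0.29 and -0.32 across the eGFP arrays in replicate order, against -0.14, 0.35, -0.26 and -0.45 across the Hoxa9 arrays. The difference was 0.00 (SE 0.20, 95% interval -0.46 to 0.47, adjusted p = 0.992, limma). The coding 3′ probe read -1.12, -0.93, -0.93 and -0.75 across the eGFP arrays in replicate order, against -0.85, -0.98, -0.81 and -0.99 across the Hoxa9 arrays. Its difference was 0.03 (SE 0.14, 95% interval -0.29 to 0.34, adjusted p = 0.925 over probes, limma). Both probes overlapped between groups and were well above background on all 8 arrays.

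The 5′ probe, the first of the sequences shown above, read -5.87, -6.17, -4.56 and -4.56 in eGFP replicates 1 to 4. It read -4.19, -3.96, -4.08 and -3.33 in Hoxa9 replicates 1 to 4. All 4 Hoxa9 arrays were above all 4 eGFP arrays, by 0.36 at the nearest, and the Hoxa9 array was higher in 4 of 4 pairs. Of the 9 member probes tested, 3 did not overlap between groups (those of Scx and Sox9 and this one), against 22.3% of all 40771 probes. The background call was passed by all 4 arrays with Hoxa9 but by only 2 with eGFP, replicates 3 and 4. The probe thus needed the Hoxa9 arrays, where it was higher, to pass the filter on dim probes. Its place among the 9 probes tested depended on that group. Its eGFP mean includes replicates 1 and 2, which were not well above background, so the size of its difference is uncertain. The means were -5.29 ± 0.85 and -3.89 ± 0.39 (difference 1.40, SE 0.42, 95% interval 0.45 to 2.35), with an adjusted p of 0.062 over all probes, where 13.5% of probes were called. The adjusted p was 0.0432 with the replicate number as a block and ran from 0.0362 to 0.270 over 17 alternatives, of which 5 made the call. With normexp background correction the difference was 0.36, with an adjusted p of 0.270, and within slides it was 2.69, 0.48 and 0.48.

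**Figure D3:**
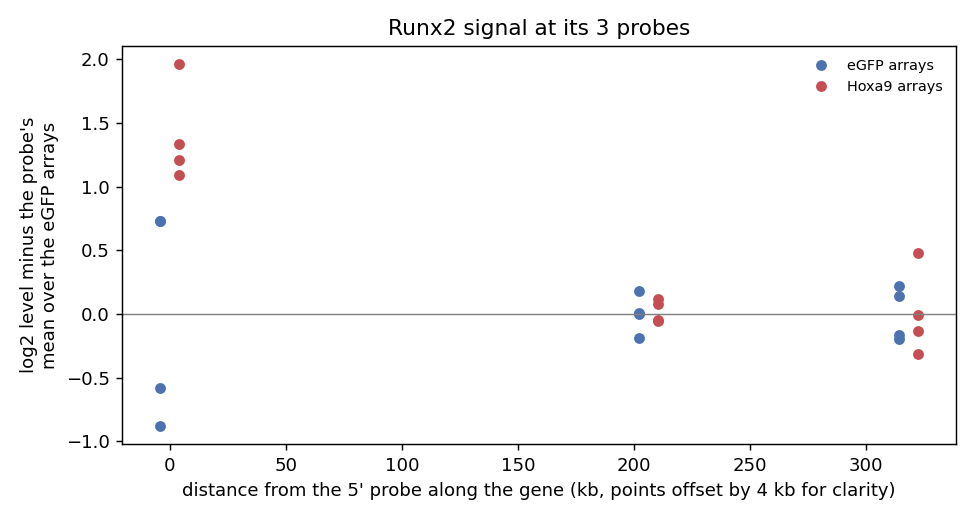
Runx2 signal on each array at its 3 probes, as log2 level minus that probe's mean over the eGFP arrays (y axis), against distance from the 5′ probe along the gene in kb (x axis, the 2 groups drawn side by side). At the 5′ probe the 4 Hoxa9 arrays (red) lie above the 4 eGFP arrays (blue), and at the other 2 probes the groups overlap.

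Because these probes share each array, the level at the 5′ probe was set against that at the coding 3′ probe within the array, a comparison chosen after the values were seen. This log2 ratio ran from -5.24 to -3.62 in eGFP and from -3.34 to -2.34 in Hoxa9 arrays, which did not overlap. The group means differed by 1.37, which restates the difference at the 5′ probe and is no separate evidence for it. On eGFP replicates 1 and 2 the 5′ probe was not well above background, so its ratio there has only an upper bound. Against the noncoding-variant probe the difference was 1.40 and the groups overlapped.

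RefSeq's promoter window for Runx2 (250 bases before the start to 50 after, GRCm38.p6, chr17:44814578-44814877, minus strand) is shown next. It was chosen because the largest difference among the Runx2 probes, which was not called over all probes, lay at the 5′ probe. The table is on another build than the probes, so whether that probe reads transcripts from this start was not tested. Of the 8 members 3 have an entry in that table (Runx2, Acan and Tnmd). Capitals mark the core of RUNX factor binding sites, TGTGGT on either strand, which appears as ACCACA on the strand printed.
Runx2 promoter: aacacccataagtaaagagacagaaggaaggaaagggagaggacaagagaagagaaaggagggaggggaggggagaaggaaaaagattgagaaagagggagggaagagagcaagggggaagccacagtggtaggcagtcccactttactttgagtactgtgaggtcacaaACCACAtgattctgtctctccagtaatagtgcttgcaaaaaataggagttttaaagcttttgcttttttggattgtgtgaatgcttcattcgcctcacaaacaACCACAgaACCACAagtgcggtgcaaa
The window holds 3 matches, 1 before the start and 2 after it, and 16.8% of 32851 promoters of the table hold 1 or more. A match of letters is not a binding site. The E-box CANNTG, the motif of helix-loop-helix factors such as Scx, was also searched on both strands. It is in 72.3% of the promoters, with 2 matches in that of Runx2, 1 in that of Acan and 0 in that of Tnmd, which says only that these letters are not in that window.

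Sp7, which acts after Runx2 in bone formation, varied more between arrays than between groups. Its probe, at chromosome 15, 102187692 to 102187751, read -4.71, -4.40, -1.92 and -4.0 across the eGFP arrays in replicate order, against -5.43, -1.91, -3.99 and -4.31 across the Hoxa9 arrays. eGFP replicate 3 and Hoxa9 replicate 2, both on slide 2, stood over 2 log2 units above the next array of their group. The third array of that slide, Hoxa9 replicate 1, was the lowest of all. The difference was -0.15 (SE 0.83, 95% interval -2.06 to 1.75, adjusted p = 0.921, limma).

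Genes around the members were taken from lists drawn up with earlier results of these data known, so they are described and not tested as groups. Of 22 further tendon genes 20 were tested, of which 5 were higher, 0 lower and 15 not called, with a median difference of 0.54. Among all genes tested 7.83% were called higher and 7.42% lower, with a median difference of -0.07. The 5 were Angptl7, a secreted protein (3.51, SE 0.73, adjusted p = 0.0133), the fibril-associated collagens Col14a1 (1.95, SE 0.24) and Col12a1 (1.64, SE 0.35), Col5a1, which helps to set collagen fibril width (0.93, SE 0.21), and Egr1, a transcription factor that can promote tendon genes (0.88, SE 0.20, adjusted p = 0.0206). Angptl7 was well above background on 3 eGFP and 4 Hoxa9 arrays, so it needed the Hoxa9 arrays to pass the filter on dim probes. With normexp Angptl7 differed by 2.18 and Col14a1 by 0.94, and with the mean of its probes Col14a1 differed by 1.01. The calls of Col5a1 and Egr1 were each lost in 4 of 20 alternatives, a median shift among them, and that of Col12a1 without eGFP replicate 2 (adjusted p = 0.0515). The main collagen gene Col1a1 differed by 0.97 (SE 0.57, adjusted p = 0.320). The 5 called genes moved in the direction opposite to Scx. The summed level of the fibro-adipogenic markers, which share Col1a1, Col3a1, Lum and Dcn with the tendon list, was 21.3 to 35.5 in eGFP and 38.3 to 64.2 in Hoxa9 arrays. That sum is led by its brightest probes, and Ly6a read -1.23 in eGFP and 3.32 in Hoxa9 arrays. The median difference of the 9 tested markers was 0.13. Of them 1 was higher (Ly6a, the surface marker Sca-1, 4.55) and 1 lower (Osr1, a transcription factor of connective tissue, -1.81). The shared genes Col1a1, Col3a1, Lum and Dcn were not called. The part of these markers in the tendon list was not tested.

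**Figure D4:**
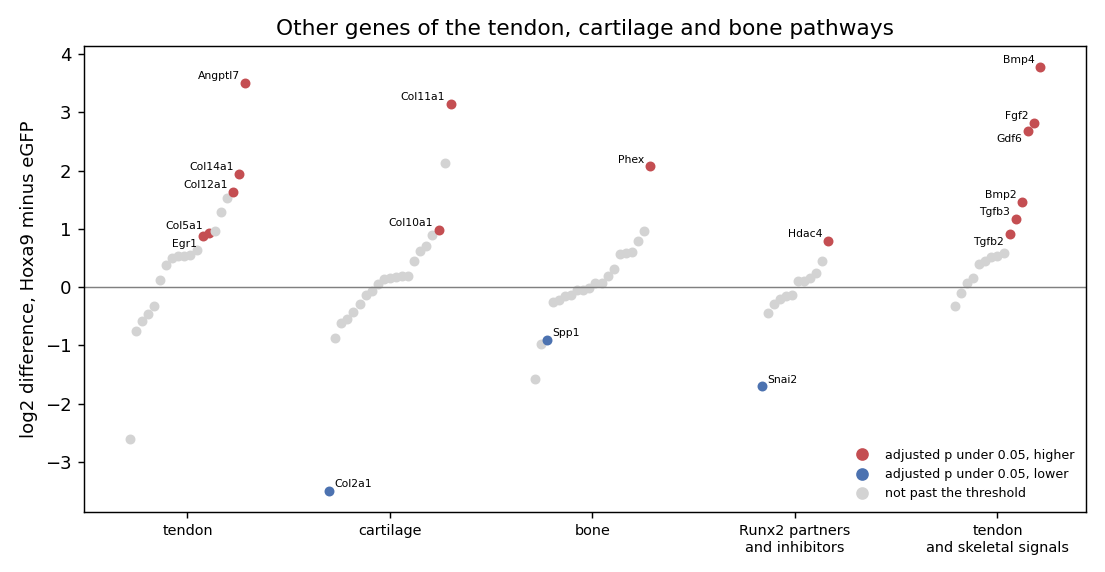
Log2 difference, Hoxa9 minus eGFP (y axis), of each tested gene of 5 lists around the members (x axis, genes sorted by value within a list), with genes called higher in red, called lower in blue and the others in grey. Of 20 tested tendon genes 5 are red and 0 blue, and of 15 tendon and skeletal signals 6 are red and 0 blue.

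Of 28 cartilage genes 21 were tested, with 2 higher, 1 lower and 18 not called, and a median difference of 0.16. The share called was 14.3%, near the 15.2% of all genes tested. Col2a1, the main cartilage collagen and a target of Sox9, fell by 3.49 (SE 0.76, adjusted p = 0.0163) and passed the background call on 4 arrays with eGFP alone and on 2 with Hoxa9. Col11a1, its partner in the fibril, rose by 3.14 (SE 0.69, adjusted p = 0.0166) from 2 eGFP arrays above background, and Col10a1, a collagen of hypertrophic cartilage, rose by 0.98. With normexp background correction the differences of Col2a1 and Col11a1 were -1.16 and 1.01. Each passed the filter on dim probes through the group where it was higher, and the other group's mean includes values not well above background. Neither is in the fit limited to probes well above background on every array. The sizes of these 2 differences, which count among the called cartilage genes, are therefore uncertain. Sox5, a partner of Sox9, differed by 0.05 (SE 0.29). Hapln1, Cnmd and Ucma, 3 genes of cartilage cells, were well above background on 0 arrays.

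Of 24 bone genes 20 were tested, with 1 higher, 1 lower and 18 not called, and a median difference of 0.02. The share called was 10%, against 15.2% of all genes tested. Phex, an endopeptidase of bone mineral and phosphate balance, rose by 2.08 (SE 0.46, adjusted p = 0.0183), and Spp1, the secreted protein osteopontin, fell by 0.90 (SE 0.25, adjusted p = 0.0422). The call for Spp1 held in 7 of 20 alternatives and was lost with the replicate block (adjusted p = 0.060). Dlx5 and Dlx3, homeobox factors that act on Runx2, differed by -0.01 (SE 0.23) and 0.06 (SE 0.21). Alpl and Ibsp, the alkaline phosphatase and bone sialoprotein of osteoblasts, did not pass the filter on dim probes. Other genes of the list did: Bglap, Bglap2, Sparc, Mepe, Sost and Phospho1 were well above background on every array. Dmp1 was so on 4 eGFP and 3 Hoxa9 arrays. None of these was called.

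Among 12 partners and inhibitors of Runx2, all tested, 1 was higher, 1 lower and 10 not called. That is 16.7% called, near the 15.2% of all genes tested. Snai2, a zinc-finger repressor, fell by 1.70 (SE 0.15, adjusted p = 0.000255) and was called in 20 of 20 alternatives, and Hdac4, a histone deacetylase that restrains Runx2, rose by 0.79 (SE 0.17, adjusted p = 0.0138). Cbfb, the partner subunit of all Runx proteins, differed by -0.16 (SE 0.13, adjusted p = 0.485).

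Of 15 genes of signals that induce or pattern these tissues, all tested, 6 were higher, 0 lower and 9 not called, with a median difference of 0.54. Over all genes tested 7.83% were called higher. Tgfb3 and Tgfb2, ligands that induce Scx in embryonic tendon, rose by 1.17 (SE 0.22, adjusted p = 0.00937) and 0.92 (SE 0.23, adjusted p = 0.0319). Gdf6, a joint and tendon ligand of the BMP family, rose by 2.68 (SE 0.29, adjusted p = 0.000629), Bmp4 by 3.78, Fgf2 by 2.83 (1.78 with normexp) and Bmp2 by 1.46. In the fit blocked by replicate number 2 of these 6 lost the call, Bmp2 (adjusted p = 0.0687) and Tgfb2 (0.0579). Gdf5 and Gdf7, relatives of Gdf6, differed by -0.32 (SE 0.37) and -0.10 (SE 0.24). Scx was thus lower on the same arrays on which the transcripts of both TGF-beta ligands were higher, and the call for Tgfb2 was lost in 9 of 20 alternatives.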

How the data were processed

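The deposited intensity values are the authors' processed signals from Agilent Feature Extraction 10.7.3.1, with spatial and multiplicative detrending switched on, per the file headers. Probe positions are on mm9; without an annotation of it, exon and UTR classes were not assigned. The other deposited table holds the authors' values as a score with unstated scale: 86.1% to 87.3% of its cells lack a decimal point. With the point restored, column medians were -3.36 to -2.95 and at least 99.77% of probes lay within 0.05 of log2 scanner signal plus a constant per array. Its direction and scale follow the scanner signal, and it served as an alternative.

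Here, control and outlier spots were left out (180 of 55681 probes lost), repeated spots were averaged, and log2 signals were shifted by the array's 75th percentile. Probes well above background (at least 0.5 of their spots) on at least 4 of 8 arrays were kept (40771), and the brightest probe stood for each of 27109 genes. Names were updated through RefSeq accessions (27656 probes matched, 1711 renamed). The fit was limma (3.58.1, under R 4.3.3), tested on simulated data, with Benjamini-Hochberg adjustment over all genes or probes at 0.05. Same-numbered samples were taken as pairs in the pair counts and in the fit blocked by replicate number. Their deviations from group means correlated at 0.129 to 0.228 in 4 pairs, all over 0.1 (2 of 12 unlike pairs also were). The main fit, which gave the SEs and adjusted p-values unless another setting is named, held the group only and left out this pairing. Arrays lay on 3 slides, each with both groups. Named genes were every member, up to 6 called genes of lowest adjusted p per pathway list, up to 3 per marker list, Pax7 and Myod1, the check gene, and the 3 genes most correlated with a member. Genes given without a call are further list members chosen after their values were seen. Members and lists were chosen with earlier results of these data known. One list symbol that also names another gene was corrected to Wwtr1. Alternatives were quantile or median scaling, normexp (offset 50), other filters, the deposited table, the mean of probes, 1 row per probe, slide or replicate number as a block, array weights, a robust prior that follows intensity, and leaving out each array.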

Additional observations from a re-analysis of the deposited data

Results flagged for a closer look

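In Scx, Hoxa9 replicate 3 (4.75) stood apart from the other 3 Hoxa9 arrays (4.34, 4.29 and 4.36), with a gap of 0.849 of the group's range past Dixon's 95% critical value. In Cnn1, a smooth muscle contractile gene among the marker lists, the same array (1.17) stood apart from the others (-0.54, -0.63 and -0.60), with a gap of 0.950 of the range, and Cnn1 differed by 2.57 between groups (2.13 without that array). These were 2 of 76 sets of 4 arrays examined, and chance alone gives about 1 in 20.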

How the results depend on the processing

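Scx was called lower in 20 of 20 alternatives (-1.49 to -1.24, adjusted p 0.000311 to 0.0126, the highest with the replicate block). With the replicate block 2302 genes were higher and 2135 lower, and among members only the call of the Runx2 5′ probe changed, while the list genes Spp1, Tgfb2, Bmp2 and Egfl7 lost theirs. The count of members called higher was 1 without eGFP replicate 1 (Mkx) and 0 without each other array. Leaving out 1 array gave 1293 to 1891 genes called lower, the fewest without eGFP replicate 2, against 2011 with all arrays. The Runx2 gene value, near 0, was 0.48 with the mean of the gene's probes (adjusted p = 0.0791), -0.026 with a median shift, -0.12 with normexp, -0.020 with slide as a block, -0.11 with array weights and -0.15 to 0.11 with 1 array left out (-0.05, -0.06 and -0.15 without eGFP replicates 3 and 4 and Hoxa9 replicate 2). Its coding 3′ probe was -0.0044 with the median shift and -0.037 to 0.086 with 1 array left out (-0.037 without eGFP replicate 1 and -0.0062 without Hoxa9 replicate 3). Sp7 was 0.012 with normexp and -0.82 to 0.46 with 1 array left out (0.46 without eGFP replicate 3 and 0.35 without Hoxa9 replicate 1). The Runx2 5′ probe was called in 5 of 17 alternatives, and the causes were not tested. Of 771 gene and probe values under alternatives, 696 kept direction and side of the threshold, 56 lost the call, 6 gained one and 13 changed sign. Dim signal limits Tnmd, Comp and the Runx2 5′ probe, which were not well above background on every array.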
